A study of Mus musculus with 2 samples.

Results

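The cells described here are 60 heart macrophages of old mice that carried the most RNA for 5 genes used as markers of lipid-associated macrophages: Lgals3, Gpnmb, Fabp5, Spp1 and Cd63. They were taken from 247 macrophages among 1426 cells. A cell counted as a macrophage when its mean value of Lyz2, C1qa, C1qb and Fcer1g was at least 1.5 and above its mean value of the collagen and matrix genes Dcn, Col1a2, Lum and Col3a1. Each of the 5 genes was turned into a z-score over the 247 macrophages, and the 60 cells with the highest mean z are called the members; they were thus chosen by the measured values of these genes. The other 187 macrophages are the cells they are set against, within each library. Since the 5 genes chose the members, their values are a description and carry no test.

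Lipid-associated macrophages are a state described in fat tissue, atherosclerotic plaques and injured organs, in which macrophages take up lipid and dead cells and break them down in lysosomes. Galectin-3 (Lgals3) binds sugars on damaged membranes, Gpnmb is a lysosomal glycoprotein, Fabp5 carries fatty acids, Spp1 is the secreted matrix protein osteopontin, and Cd63 is a tetraspanin of late endosomes. In the heart this state is usually set against resident macrophages, which carry genes such as Lyve1, Folr2, Timd4 and Cd163 and are held there with little input from blood monocytes.

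Hearts came from p16-FDR mice of the C57BL/6 strain at 20 to 22 months of age, and all cells were sorted for mCherry. These mice carry an FLP recombinase and a diphtheria toxin receptor fused to mCherry, and their name refers to p16, a product of Cdkn2a that blocks the cell cycle and is widely used to mark senescent cells. The labels give 2 samples in 1 group, with no unsorted or mCherry-negative cells, so the sort itself has no comparison here. RNA was read from the 3' end of transcripts with the 10x Genomics v3 kit, which tags each molecule with a unique molecular identifier (UMI).

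The names of the cells split them into 2 libraries, Heart1 and Heart2, but leave unsaid to which of the samples each belongs and whether separate animals were used. The p-values below therefore measure no known spread between animals. They rest on how far a difference varied between these libraries, which may be technical, and mostly on a spread pooled over genes. Heart1 held 266 cells and Heart2 held 1160, with 0 barcodes in common and 3164 to 79999 UMIs per cell. The libraries stand apart in the gene behind the reporter, since a Cdkn2a UMI was found in 35.4% of the cells of Heart1 that were not macrophages and in 0.947% of those of Heart2. Every value below is given for each library.

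Of the 37 macrophages of Heart1, 14 were members (37.8%, 95% exact binomial interval 22.5 to 55.2%). Of the 210 macrophages of Heart2, 46 were members (21.9%, 16.5 to 28.1%). These intervals, like all others below, cover counting error only. Members had more UMIs per cell than the other macrophages, with a median of 12484 UMIs against 6661 in Heart1 and 11342 against 9356.5 in Heart2. The median number of genes per cell was 3165 in members against 2017 in the other macrophages of Heart1, and 3033.5 against 2880.5 in Heart2. The part of depth in the differences below was not tested beyond the values given. After every cell was thinned to 3000 UMIs before scoring, 41 of the 60 cells chosen were again members.

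The rank by mean z had a steep start and a long flat middle. The highest cell reached a mean z of 6.24 and the next one 2.85, while the median was 0.278 in members and -0.155 in the other macrophages. At the limit of 60 the last cell inside had a mean z of 0.102 and the first cell outside had 0.101, so the limit falls within a continuous range and sets no boundary between kinds of cell. Of the 10 highest members, 7 were from Heart1.

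**Figure D1:**
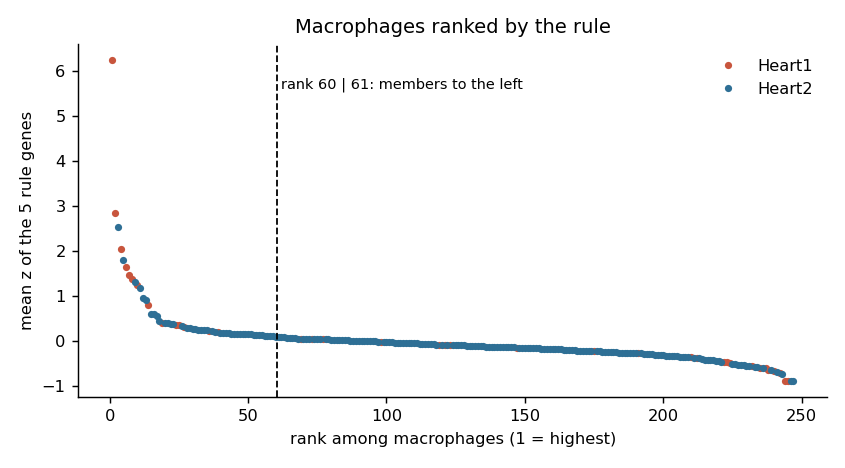
Mean z of the 5 genes of the rule (y axis) for the 247 macrophages in rank order (x axis), coloured by library. The highest cell is at 6.24, the next at 2.85, and there is no step at the dashed line between ranks 60 and 61.

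Lgals3, the most abundant of the 5 in Heart1, was found in 14 of 14 members against 13 of 23 other macrophages of Heart1, and in 45 of 46 members against 104 of 164 other macrophages of Heart2. On the deposited scale, the natural log of 1 plus UMIs per 10000, the lowest, median and highest Lgals3 values were 1.88, 3.35 and 5.70 in members against 0, 0.917 and 2.68 in the other macrophages of Heart1. In Heart2 they were 0, 1.92 and 4.23 in members against 0, 0.766 and 3.09 in the other macrophages. The ranges overlapped in both libraries. As CPM, the UMIs summed over cells and scaled to the same total in each group, Lgals3 stood at 6154 in members against 307 in the other macrophages of Heart1, and at 1121 against 291 in Heart2.

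Cd63 was in all 60 members and differed less in Heart2, where it had 1125 CPM in members against 888 CPM in the other macrophages. In Heart1 it had 1329 CPM in members against 313 CPM in the others. Cd63 was as high in the cells that passed the fibroblast rule, at 1151 CPM in Heart1 and 1678 CPM in Heart2, so it does not set macrophages apart. Fabp5 was in 6 of 14 members against 5 of 23 other macrophages of Heart1, and in 24 of 46 members against 14 of 164 other macrophages of Heart2. Fibroblast-rule cells of Heart1 and Heart2 had 31.9 and 52.4 CPM of Lgals3, and 60.1 and 50.4 CPM of Fabp5, below the members.

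Gpnmb and Spp1 were rare. Gpnmb was found in 5 of 14 members of Heart1 and 3 of 46 members of Heart2, and in 0 of the 187 other macrophages, a split that the rule itself favours. Spp1 was found in 4 of 14 members of Heart1 and 6 of 46 members of Heart2, against 0 of 23 and 2 of 164 other macrophages. Gpnmb had 495 CPM in members against 50.9 CPM in fibroblast-rule cells of Heart1, but 13.8 CPM against 61.4 CPM in Heart2. Spp1 had 507 CPM in members against 216 CPM in fibroblast-rule cells of Heart1, and 43.3 CPM against 34.8 CPM in Heart2. Only 2 members held both Gpnmb and Spp1, and 44 of the 60 held neither. By contrast, 59 members held both Lgals3 and Cd63. Cd63 was also found in 16 of 23 and 154 of 164 other macrophages. The name Lgals3 and Gpnmb lipid-associated macrophages thus describes a minority of the cells. Most members were macrophages with UMIs of Lgals3 and Cd63 and none of Gpnmb.

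A single cell of Heart1, the highest by mean z, held much of the RNA of these genes in that library. It carried 500 of the 1093 Lgals3 UMIs of the Heart1 members, 121 of 164 Fabp5 UMIs and 74 of 90 Spp1 UMIs, with 9.44% of all their UMIs. It also held 72 of 80 UMIs of Lpl, the lipase of lipoprotein triglyceride. Scrublet predicted this cell as a doublet, the only one among the members, against 1 and 2 predicted doublets among the other macrophages of Heart1 and Heart2. It had 0 Dcn and 0 Cd3e UMIs. It was kept, and the Heart1 differences of Lpl, Fabp4 and Fn1 are also given without it.

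**Figure D2:**
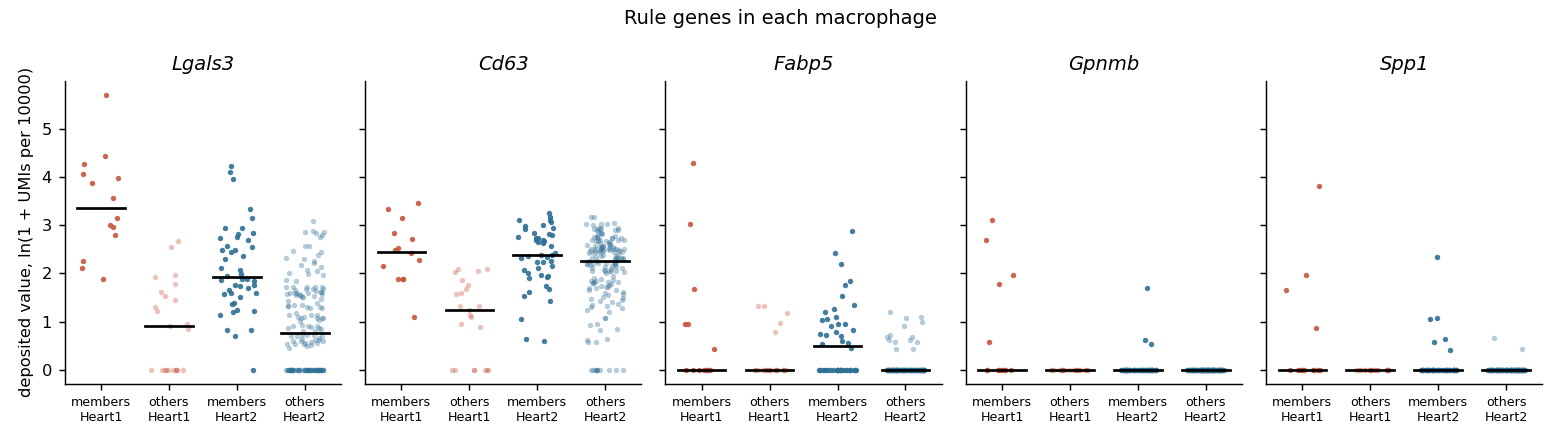
Deposited value of each gene of the rule, ln(1 + UMIs per 10000), in each macrophage of the 4 groups (points) with the median (bar). Lgals3 and Cd63 are broad, Gpnmb appears in 8 members and in 0 other macrophages, and the Spp1 median is 0 in all 4 groups.

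The members were macrophages by genes the rule did not use. Every member had UMIs of C1qc, a subunit of complement C1q, of the growth factor receptor gene Csf1r, and of the adaptor gene Tyrobp. Cd68 was in 14 of 14 members of Heart1 and 44 of 46 members of Heart2, and Adgre1 in 13 and 43. Ptprc was in 12 and 40, Fcgr1 in 9 and 29, and Mertk in only 3 and 13. C1qc, Csf1r, Adgre1 and Ptprc were lower in members than in the other macrophages of both libraries. Cd68 was higher in both, and Fcgr1, Mertk and Tyrobp differed in direction. Markers of T and NK cells were at 0 in members and in the other macrophages of both libraries. The 7 fibroblast markers summed to 231 CPM in members against 165 CPM in the other macrophages of Heart1, and to 220 CPM against 650 CPM in Heart2, with a median of 0 to 0.5 of these genes detected per thinned cell. Monocyte markers summed to 828 CPM in members against 708 CPM in the others of Heart1, and to 690 CPM against 710 CPM in Heart2. The classical monocyte genes Ly6c2 and Plac8 each had UMIs in 1 member of Heart1 and were at 0 in the other macrophages of Heart1 and in all macrophages of Heart2.

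To ask what else distinguishes the members, UMIs were summed over members and over the other macrophages of each library and compared with limma on log2(CPM + 5), with library as a block. A single gene of 7747 rose in members at an adjusted p under 0.05 (0.0129%) and 2 fell (0.0258%). At an unadjusted p under 0.05, 144 genes were higher and 189 lower. The fit rests on 4 sums and 1 residual degree of freedom, and under other settings the calls ranged from 0 to 33 higher and from 0 to 49 lower. As a description without a test, 21 genes (0.271%) were at least 2-fold higher in both libraries and 37 (0.478%) were at least 2-fold lower.

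The difference with the lowest adjusted p was in Cd207, for which no UMI was found in the members. Cd207 encodes langerin, a C-type lectin best known from Langerhans cells of the skin and also made by other myeloid cells. It had 0 UMIs in the 14 members of Heart1 against 1074 CPM (182 UMIs) in the other macrophages, and 0 UMIs in the 46 members of Heart2 against 346 CPM (547 UMIs). By cells, 0 of 60 members carried it, against 9 of 23 other macrophages of Heart1 and 13 of 164 of Heart2. By counting error alone, a count of 0 allows UMI-bearing cells to make up as much as 21.4% of the Heart1 members and 6.52% of the Heart2 members. It sets no limit on cells that express the gene. Set against a floor of 3 counts per library, it was at least 63.6-fold lower in members of Heart1 and at least 58.7-fold lower in Heart2 (limma, Benjamini-Hochberg adjusted p = 0.000145). Both bounds hold for the 60 members alone, since Cd207 cells lay just outside the limit, such as the cells at rank 64 with 49 UMIs and at rank 73 with 68. The log2 difference over both libraries, -6.94 with 60 members, was -1.65 with 90 members, -3.74 with marker values thinned to 3000 UMIs, -4.70 with Spp1 left out of the mean z and -4.64 with z-scores within each library. The call was kept under these 4 settings and lost when genes under a mean of 50 CPM were left out (limma, adjusted p = 0.0933). Without the highest cell of each sum it was -7.39 in Heart1 and -5.92 in Heart2 on the log2 scale. At 3000 UMIs per cell the other macrophages still held Cd207 in 9 of 23 and 12 of 164 cells, and 0 of the members did.

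Cxcl10, an interferon-induced chemokine that attracts T cells, also fell by this test, but on few cells. It had 0 CPM in members against 53.1 CPM in the other macrophages of Heart1, and 11.8 CPM against 141 CPM in Heart2 (limma, adjusted p = 0.0432). All 9 UMIs of the other macrophages of Heart1 lay in 1 cell, which also held Cd207, and 200 of the 222 in Heart2 lay in another. The call was lost with no block (limma, adjusted p = 0.585), with predicted doublets left out (0.0859), with a mean CPM of 50 or more (0.860) and without the Cd207 cells (0.778), where the log2 difference was -1.61 in place of -3.33.

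Lyz1, a lysozyme gene, rose by the same test. It had 833 CPM in members against 136 CPM in the other macrophages of Heart1, and 651 CPM against 203 CPM in Heart2 (limma, log2 difference 2.12 ± 0.28 SE over 2 libraries, adjusted p = 0.0432). In Heart1, 132 of the 148 UMIs of the members lay in 1 cell. In Heart2, 12 of 46 members carried Lyz1, and of their 331 UMIs 149 lay in 1 cell and 108 in another. Without the highest cell of each sum the difference was 0.43 in Heart1 and 1.53 in Heart2, and the call was lost (limma, adjusted p = 0.930). It was also lost with no block (0.225) and with a mean CPM of 50 or more (0.569). Lyz1 lies 5.475 kb from its near-identical paralog Lyz2, a gene of the macrophage rule, so reads may be split between them and its level is uncertain. The Lyz1 and Cxcl10 calls were both lost when p-values were adjusted without the 13 genes of the rule (limma, adjusted p = 0.0681 for each).

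**Figure D3:**
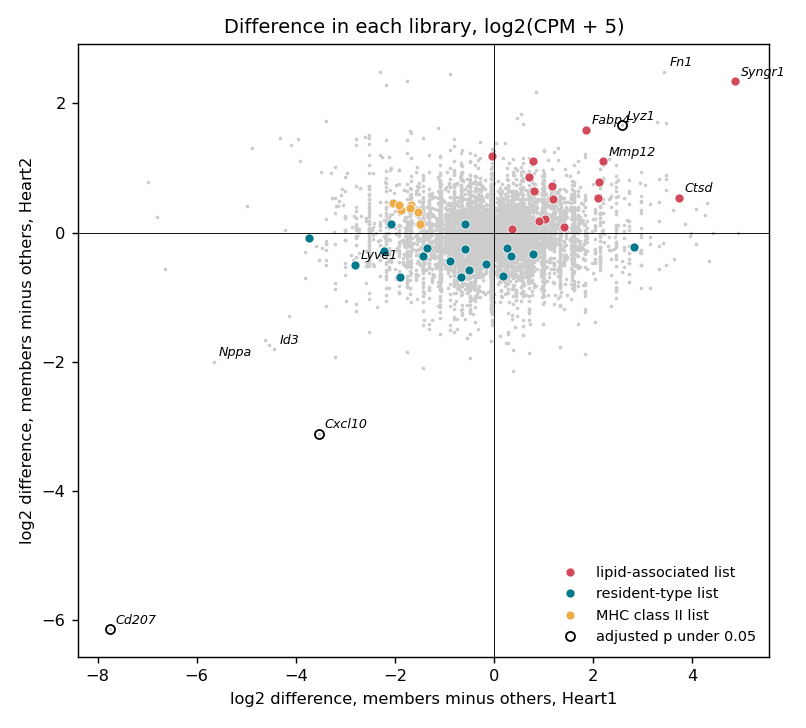
Difference between members and other macrophages for each fitted gene outside the rule, on log2(CPM + 5), in Heart1 (x axis) and Heart2 (y axis), with 3 gene lists coloured and the called genes circled. Cd207 is at -7.75 and -6.13, far from all other genes. Lipid-associated genes lie to the upper right, and MHC class II genes to the left in Heart1 and slightly above 0 in Heart2.

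Genes of the lipid-associated state that were not part of the rule lay mostly higher in the members, without passing the test one by one. Of 16 such genes, 0 were called and 15 were higher in both libraries, where 22.5% of all genes tested were. Their median difference was 1.18 in Heart1 and 0.68 in Heart2 on the log2 scale, against -0.05 and -0.03 over all genes tested. When each gene lost its highest cell in every sum, 13 of the 15 genes still fitted were higher in both libraries. The list was chosen knowing that these genes mark the same state as the rule. The exception was Itgax, the integrin CD11c, with a difference of -0.05 in Heart1 and 1.18 in Heart2.

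Syngr1, a synaptogyrin of vesicle membranes, had the largest difference of the list. It had 141 CPM in members against 0 in the other macrophages of Heart1, at least 7.95-fold higher against the floor of 3 counts. In Heart2 it had 49.2 CPM in members against 5.70 CPM. It was found in 5 of 14 members and 11 of 46 members, against 0 of 23 and 8 of 164 other macrophages, and it missed the threshold (limma, adjusted p = 0.168).

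Ctsd, the lysosomal protease cathepsin D, had 7421 CPM in members against 555 CPM in the other macrophages of Heart1, and 1390 CPM against 954 CPM in Heart2. It was higher in both libraries but with very different size, 3.73 against 0.54 on the log2 scale, so its pooled difference of 2.14 ± 0.54 (SE) did not pass (limma, adjusted p = 0.920). Cstb, the cathepsin inhibitor cystatin B, went the same way, with 495 CPM in members against 112 CPM in the other macrophages of Heart1 and 324 CPM against 222 CPM in Heart2.

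Further members of the list were higher in both libraries without a call. Trem2, the lipid receptor that the state depends on in mouse fat tissue, had 788 CPM in members against 342 CPM in the other macrophages of Heart1, and 452 CPM against 315 CPM in Heart2. Plin2, the coat protein of lipid droplets, had 1019 CPM in members against 448 CPM in Heart1 and 348 CPM against 210 CPM in Heart2. The tetraspanin Cd9 had 664 CPM in members against 384 CPM in Heart1 and 385 CPM against 177 CPM in Heart2. Neither these nor the cytoskeletal genes Vim and Capg passed the test (limma, adjusted p = 0.920 to 0.938).

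Some members of the list rested on few cells. For Lpl the Heart1 difference of 2.11 became -0.27 without the highest cell of each sum, while in Heart2 it was 0.78 and then 0.71. Without the highest cell by mean z alone, the Lpl difference in Heart1 was -0.94. For Mmp12, the macrophage elastase, the Heart2 difference of 1.10 became -0.43, while in Heart1 it was 2.21 and then 2.97. Fabp4, a fatty acid carrier 187.48 kb from Fabp5, had 163 CPM in members against 41.3 CPM in the other macrophages of Heart1 and 17.7 CPM against 2.53 CPM in Heart2. The highest cell by mean z held 19 of the 29 Fabp4 UMIs of the Heart1 members, and without it the Heart1 difference of 1.86 became 0.54. Fabp4 is also an endothelial marker. The other endothelial markers were not abundant enough to be tested.

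**Figure D4:**
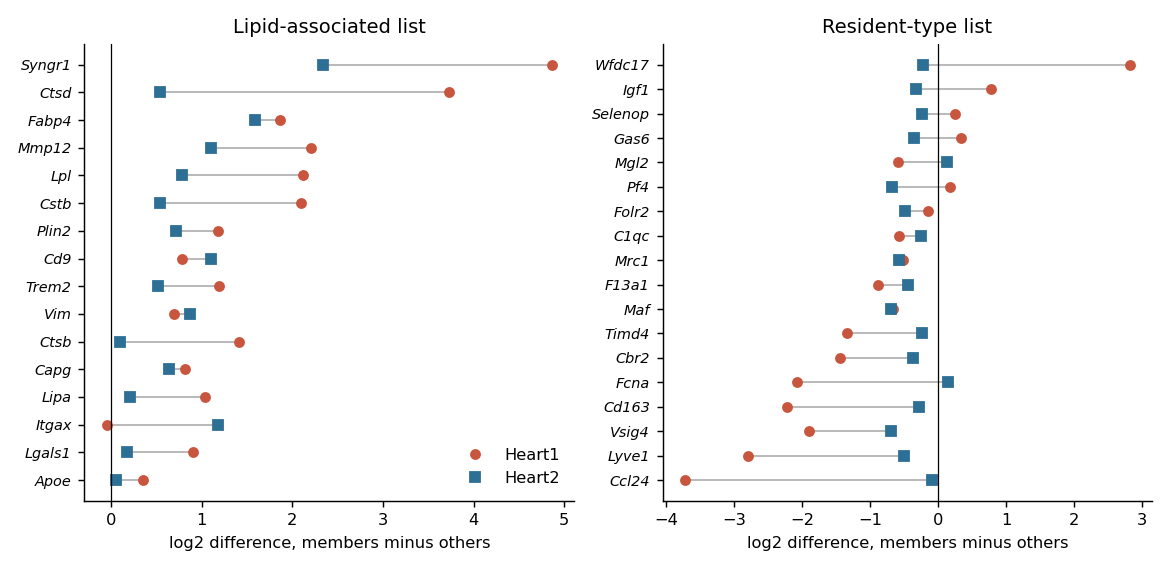
Difference between members and other macrophages on log2(CPM + 5) for each gene of the lipid-associated list (left) and the resident-type list (right), in Heart1 (circles) and Heart2 (squares). In the left panel 15 of 16 genes lie above 0 in both libraries, and in the right panel 11 of 18 lie below 0 in both.

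Promoters were searched for CACGTG, bound by members of the MiT/TFE family, which control lysosomal genes, and for TGACTCA, bound by AP-1 factors. Those of Gpnmb, Ctsd, Plin2 and Cd207 are shown, each with a motif, and of these genes only Cd207 was called. The promoters of the called genes Lyz1 and Cxcl10 are not shown. Windows run from 250 bases before to 50 bases after the gene start (RefSeq, GRCm38.p6), 5' to 3' on the gene's strand, with the motif in capitals. Both strands were searched, so TGACTCA also stands for TGAGTCA, while CACGTG reads alike on both. CACGTG was in 7.15% of 32851 promoters and TGACTCA in 5.20%. Of the rule genes 4 were matched, with TGACTCA in Gpnmb and CACGTG in 0. Of the lipid-associated list 11 genes were matched with 14 promoters, of which 2 held CACGTG (Ctsd and Plin2) and 2 held TGACTCA (Itgax and Mmp12). Cd207 is the called gene with 0 UMIs in the 60 members. A match is a description of the letters and says nothing of binding.
Gpnmb, chr6:49036268-49036567, + strand: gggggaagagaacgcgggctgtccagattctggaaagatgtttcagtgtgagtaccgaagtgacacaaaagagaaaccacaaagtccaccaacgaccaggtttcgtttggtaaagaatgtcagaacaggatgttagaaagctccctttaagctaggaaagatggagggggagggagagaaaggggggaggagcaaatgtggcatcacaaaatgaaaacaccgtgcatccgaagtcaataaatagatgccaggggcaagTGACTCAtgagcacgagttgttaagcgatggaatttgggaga
Ctsd, chr7:142387778-142388077, - strand: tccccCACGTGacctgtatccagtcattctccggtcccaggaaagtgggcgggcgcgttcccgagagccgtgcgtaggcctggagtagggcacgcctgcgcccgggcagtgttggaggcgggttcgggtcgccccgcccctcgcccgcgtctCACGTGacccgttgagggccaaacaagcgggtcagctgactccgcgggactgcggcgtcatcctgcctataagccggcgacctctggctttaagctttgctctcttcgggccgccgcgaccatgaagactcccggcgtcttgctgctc
Plin2, chr4:86670010-86670309, - strand: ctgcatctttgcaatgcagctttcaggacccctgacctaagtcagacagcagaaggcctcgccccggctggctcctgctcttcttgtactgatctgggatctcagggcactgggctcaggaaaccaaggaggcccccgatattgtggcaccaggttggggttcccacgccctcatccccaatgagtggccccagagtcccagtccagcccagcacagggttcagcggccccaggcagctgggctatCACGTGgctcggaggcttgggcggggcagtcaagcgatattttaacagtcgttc
Cd207, chr6:83677808-83678107, - strand: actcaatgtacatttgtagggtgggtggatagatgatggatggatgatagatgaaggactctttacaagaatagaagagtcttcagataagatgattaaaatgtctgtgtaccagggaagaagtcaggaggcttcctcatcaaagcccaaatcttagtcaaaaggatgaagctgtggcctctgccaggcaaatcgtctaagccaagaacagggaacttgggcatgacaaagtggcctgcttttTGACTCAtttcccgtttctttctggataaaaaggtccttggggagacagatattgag

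Ctsd carried CACGTG at 2 places and the other 3 promoters carried 1 motif each. Of the factors themselves, Tfeb had 39.4 CPM in members against 35.4 CPM in the other macrophages of Heart1 and 17.7 CPM against 19.6 CPM in Heart2. Tfe3 had 45.0 CPM in members against 124 CPM in Heart1 and 82.6 CPM against 74.7 CPM in Heart2, and Mitf had 61.9 CPM against 29.5 CPM in Heart1 and 45.2 CPM against 43.0 CPM in Heart2. The AP-1 gene Jun had 180 CPM in members against 1357 CPM in Heart1 and 175 CPM against 223 CPM in Heart2. Of the 10 tested genes on the list of MiT/TFE and related factors 0 were called, with 2 higher and 3 lower in both libraries. Over all genes tested, these shares were 22.5% and 29%.

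Counted per cell at equal depth, the lipid-associated list separated the groups more in Heart1 than in Heart2. At 3000 UMIs, members of Heart1 had a median of 10 of the 16 genes detected (range 6 to 16) against 7 (5 to 9) in the other macrophages. In Heart2 the median was 8 (5 to 12) in members against 7 (3 to 15). The ranges overlapped in both libraries, and a cell with 15 of the genes lay among the other macrophages of Heart2. The member with 16 was the highest cell by mean z.

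**Figure D5:**
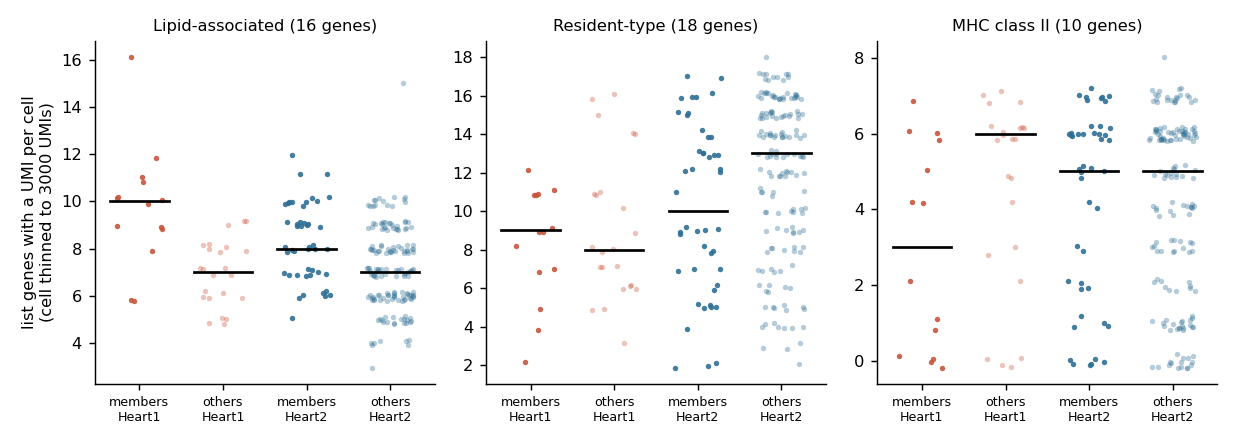
Genes of the lipid-associated, resident-type and MHC class II lists with a UMI in each cell after thinning to 3000 UMIs, by group (points, spread slightly for view) with the median (bar). Lipid-associated genes have a median of 10 in members of Heart1 against 7, and of 8 in members of Heart2 against 7.

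Resident-type genes lay mostly lower in members. Of 18 such genes 0 were called, 11 were lower in both libraries and 0 higher in both, where 29% of all genes tested were lower in both. The median difference was -0.63 in Heart1 and -0.34 in Heart2. When each gene lost its highest cell in every sum, 11 of the 18 genes were lower in both libraries. Lyve1, a hyaluronan receptor, had 84.5 CPM in members against 620 CPM in the other macrophages of Heart1 and 482 CPM against 682 CPM in Heart2. In Heart1 it was found in 4 of 14 members against 5 of 23 others, and 53 of the others' 105 UMIs lay in 1 cell. In Heart2 it was found in 22 of 46 members against 104 of 164 others. The complement receptor gene Vsig4 had 236 CPM in members against 897 CPM in Heart1 and 336 CPM against 546 CPM in Heart2. In Heart1, 33 of the 42 Vsig4 UMIs of the members lay in 1 cell. The haemoglobin scavenger receptor gene Cd163 had 101 CPM in members against 490 CPM in Heart1 and 360 CPM against 438 CPM in Heart2. The other 7 genes of the list differed in direction, 5 of them higher in Heart1 and 2 higher in Heart2. Of these, Wfdc17 had 2793 CPM in members against 389 CPM in Heart1, but 1262 CPM against 1468 CPM in Heart2. Folr2 was found in 12 of 14 members against 11 of 23 others of Heart1, with 450 CPM against 502 CPM. In Heart2 it was found in 25 of 46 members against 124 of 164 others. None of the resident-type genes named here passed (limma, adjusted p = 0.779 to 0.938). These genes were still detected in members: at equal depth the median number per cell was 9 in members against 8 in the other macrophages of Heart1, and 10 against 13 in Heart2.

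The lists of membrane repair, metabolism and lysosome genes held 0 called genes. Of 14 galectin, annexin and S100 genes outside the rule, 11 were higher in both libraries, where 22.5% of all genes tested were, with medians of 0.55 in Heart1 and 0.37 in Heart2. S100a10, a partner of annexin A2, had 1323 CPM in members against 537 CPM in the other macrophages of Heart1 and 716 CPM against 515 CPM in Heart2. Of 14 glycolysis and hypoxia genes, 9 were higher in both, with medians of 0.40 in Heart1 and 0.27 in Heart2. Of 26 lysosome genes, 12 were higher and 5 lower in both, and the medians were 0.44 in Heart1 and 0.04 in Heart2. Psap, the precursor of the saposins that help degrade sphingolipids, had 2826 CPM in members against 1221 CPM in Heart1 and 1882 CPM against 1507 CPM in Heart2. Among 15 proton pump subunits 7 were higher in both and 0 lower, with medians of 0.60 in Heart1 and 0.06 in Heart2. Atp6v1b2 was at 163 CPM in members against 64.9 CPM in Heart1 and 183 CPM against 118 CPM in Heart2.

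Of 22 tested lipid handling genes, 8 were higher and 6 lower in both libraries, with medians of 0.55 in Heart1 and -0.04 in Heart2. Over all genes tested, 22.5% were higher in both and 29% lower in both. Cd36, a scavenger receptor for oxidised lipoprotein, had 372 CPM in members against 70.8 CPM in the other macrophages of Heart1, but 289 CPM against 350 CPM in Heart2. Of 14 clearance receptors 2 were higher and 5 lower in both, and of 12 iron genes 3 were higher and 7 lower. Of the iron genes, ferritin heavy chain (Fth1) was higher in both, with 21671 CPM in members against 7936 CPM in Heart1 and 11205 CPM against 9098 CPM in Heart2. None of the genes of these lists was called.

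Antigen presentation differed in direction between the libraries. All 7 tested MHC class II genes were lower in members of Heart1 and higher in members of Heart2, with median differences of -1.70 and 0.38. Over all genes tested, 22.5% were higher in both libraries and 29% lower in both. The rest did not go the same way in both, so such a split was common. Cd74, the invariant chain, had 6571 CPM in members against 21295 CPM in the other macrophages of Heart1, and 21578 CPM against 16525 CPM in Heart2. The heat shock and immediate early genes that tissue dissociation can raise also split by library, with medians of -2.31 in Heart1 and 0.41 in Heart2. Hspa1a had 28.2 CPM in members against 4201 CPM in the other macrophages of Heart1, and 132 CPM against 74.0 CPM in Heart2. The near-identical Hspa1a and Hspa1b may share reads. Whether these stress genes play a part in the Heart1 differences was not tested.

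In cells sorted by a p16 reporter, Cdkn2a did not mark the members out. A Cdkn2a UMI was found in 7 of 14 members of Heart1 (50%, 95% exact interval 23.0 to 77.0%) against 9 of 23 other macrophages (39.1%, 19.7 to 61.5%). In Heart2 it was found in 10 of 46 members (21.7%, 10.9 to 36.4%) against 47 of 164 (28.7%, 21.9 to 36.2%). The intervals overlap in both libraries. After thinning to 3000 UMIs the shares were 21.4% of members against 17.4% in Heart1 and 10.9% against 14.6% in Heart2. Cells of Heart2 that were not macrophages gave 0.526% at that depth, below the macrophage shares there. Those of Heart1 gave 19.2%, which lies within the intervals of both macrophage shares of Heart1. In CPM, Cdkn2a stood at 78.8 in members against 159 in the others of Heart1 and at 98.3 against 95.6 in Heart2 (limma, adjusted p = 0.942).

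Cdkn1a, which encodes the cell cycle inhibitor p21, had 360 CPM in members against 260 CPM in the other macrophages of Heart1 and 242 CPM against 121 CPM in Heart2, and did not pass (limma, adjusted p = 0.938). At 3000 UMIs its shares were 35.7% of members against 34.8% in Heart1 and 19.6% against 22.6% in Heart2. Cdkn2b, the neighbour of Cdkn2a that encodes p15, had 16.9 CPM in members against 35.4 CPM in Heart1 and 5.90 CPM against 19.0 CPM in Heart2. The Heart1 values stand for 3 UMIs in members against 6 in the others. Of the 14 core senescence genes 0 were called, 2 were higher in both libraries and 5 lower, where 22.5% and 29% of all genes tested were.

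Among matrix and repair genes, Fn1, which encodes fibronectin, came nearest to the threshold. It had 113 CPM in members against 5.90 CPM in the other macrophages of Heart1 and 55.1 CPM against 5.70 CPM in Heart2 (limma, adjusted p = 0.0935). It was carried by 6 of 14 and 6 of 46 members, against 1 of 23 and 3 of 164 other macrophages. Heart1 had a single UMI in the other macrophages, and its ratio of 19.1 has a counting interval of 3.05 to 791. Without the highest cell by mean z the Heart1 difference of 3.43 became 2.62. Fibroblast-rule cells had 285 CPM of Fn1 in Heart1 and 58.2 CPM in Heart2, and the 7 fibroblast markers outside the rule had the sums given above. Their part in the Fn1 difference was not tested.

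A few further genes were chosen after their values were seen, from those at least 2-fold apart in both libraries. Id3, an inhibitor of helix-loop-helix factors, had 22.5 CPM in members against 590 CPM in the other macrophages of Heart1 and 31.5 CPM against 122 CPM in Heart2 (limma, adjusted p = 0.123). The protease gene Adam8 had 101 CPM in members against 5.90 CPM in Heart1 and 17.7 CPM against 1.90 CPM in Heart2. The atrial muscle genes Nppa, Sln, Myl4 and Myl7 were at 0 in members of Heart1 and at 1 UMI each in members of Heart2. Of these Nppa, which encodes atrial natriuretic peptide, had 248 CPM in the other macrophages of Heart1, where 35 of its 42 UMIs lay in 1 cell, and 22.8 CPM in Heart2. Heart muscle markers summed to 78.8 CPM in members against 295 CPM in Heart1 and 106 CPM against 143 CPM in Heart2, and their part in these differences was not tested.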

How the data were processed

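Per the labels, mCherry-sorted heart cells were profiled with the 10x Genomics v3 3' kit, and reads were handled with Cell Ranger 3.0.2 on build mm10, per the submitters' processing notes. No source used here gives the normalizing tool or the cell filters. In the deposited table, 15247 genes by 1426 cells, each value is ln(1 + UMIs per 10000), a natural log whose unit was read from the numbers. UMIs were recovered from the steps of each cell: all 4459440 values above 0 were whole within 1e-06. No gene row was named for a total or an unassigned class.

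The members and gene lists were chosen with earlier results of these data known. UMIs were summed per library over members and over other macrophages, giving 4 sums of 169476 to 1579930 UMIs. These were compared with limma 3.58.1 (R 4.3.3) on log2(CPM + 5), with library as a block, a mean-variance trend and two-sided p-values adjusted by Benjamini-Hochberg over the 7757 genes that averaged at least 10 CPM. The 10 fitted genes of the rule were left out of counts, leaving 7747. The log2(CPM + 5) scale understates changes of low genes. The variance prior supplied 9.04 degrees of freedom beside the 1 residual one, so p-values rest mostly on a spread pooled over genes. The main test had been set as limma since logs were deposited. UMIs could be recovered all the same, and no count model was run. Doublets were predicted with scrublet (scanpy 1.11.5) in each library, 10 in Heart1 and 3 in Heart2, and kept. Thinning drew 3000 UMIs from each cell without replacement, and 0 cells were shallower.

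Genes named in the text are the called genes, members of the 28 lists and the core senescence genes, and others are said to be chosen after their values were seen. Alternatives covered scaling, pseudocount, filter, block, the rule's settings, depth, doublets and single cells.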

Additional observations from a re-analysis of the deposited data

How the results depend on the processing

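The counts of called genes, 1 higher and 2 lower, depended on nearly every setting, and the variance prior ranged from 4.26 degrees of freedom to infinite over them. The numbers of genes higher and lower were 6 and 6 with median-ratio size factors, 25 and 47 with no filter beyond 1 UMI, 25 and 44 with the mean of per-cell CPM, 0 and 0 with a mean CPM of 50 or more, and 0 and 1 with no replicate block. With the 40 highest macrophages as members they were 3 and 5, with the 90 highest 7 and 11, with Spp1 left out of the mean z 33 and 48, with z-scores within each library 18 and 42, and with marker values thinned to 3000 UMIs 20 and 30. With a pseudocount of 1 CPM 2 genes were higher and with 20 CPM 3, and 1 gene was lower with predicted doublets left out. Settings added after seeing the data gave 21 and 49 without the highest member, 21 and 43 without cells with a Cd207 UMI, 0 and 1 with each gene without its highest cell, 0 and 1 adjusted without the 13 genes of the rule, and 4 higher with cells of 6000 UMIs or more. The cause of these shifts was not tested. The Cd207 difference has no value where its cells were left out. The counts of genes at least 2-fold higher and lower in both libraries, 21 and 37, became 44 and 83 with a pseudocount of 1 CPM, 3 and 4 with 20 CPM, 3 and 6 with a mean CPM of 50 or more, and 47 and 82 with no filter, and the lower count was 70 with 40 members and 19 with 90. The Heart2 member share, 21.9%, was 12.4% with 40 members and 34.8% with 90. Thinning moved Cdkn2a shares to 21.4% of members against 17.4% of others in Heart1 and 10.9% against 14.6% in Heart2, and Cdkn1a shares in Heart2 to 19.6% against 22.6%. Lipid-associated genes higher in both libraries numbered 13 to 16 and resident-type genes lower in both 9 to 16 over all settings, and in a single library 15 to 16 and 13 to 16. Leaving out a library leaves no residual degrees of freedom, so the calls have no such value. Of 1237 values of 60 named genes under alternatives, 1120 stayed within the spread between libraries or on the same side of the threshold, 107 moved, 10 lost a call and 0 reversed. This does not mean that every difference of a single library kept its sign. The Lpl difference in Heart1 went from 2.11 to -0.94 without the member with the highest mean z. That of Mmp12 in Heart2 went from 1.10 to -0.43 without the highest cell of each sum.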

Other observations

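The other macrophages with a Cd207 UMI, 22 cells in all and chosen here after their values were seen, differed from the members in further genes. Cxcl13, a chemokine that attracts B cells, had 5.63 CPM in members of Heart1 against 1797 CPM in the Cd207 cells and 637 CPM in the remaining macrophages of that library. In Heart2 it had 509 CPM in members against 7242 CPM in the Cd207 cells and 234 CPM in the rest. Id3 had 22.5 CPM in members of Heart1 against 588 CPM in the Cd207 cells and 591 CPM in the rest, and 31.5 CPM in members of Heart2 against 752 CPM and 71.8 CPM. The resident-type gene Folr2 was lower in the Cd207 cells than in the remaining macrophages, at 180 CPM against 684 CPM in Heart1 and 760 CPM against 1351 CPM in Heart2. These values have no test, since the cells were picked by their own Cd207 UMIs.

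Cell cycle and interferon genes were carried by few cells and split by library. All 10 tested proliferation genes were lower in members of Heart1 and higher in members of Heart2, with median differences of -1.94 and 1.14. Of all genes tested, only 22.5% were higher in both libraries and 29% lower in both. Of 15 interferon genes 0 were called, with a median difference of 1.68 in Heart1 and -0.32 in Heart2. Isg15, a ubiquitin-like protein induced by interferon, had 557 CPM in members against 23.6 CPM in the other macrophages of Heart1, and 90 of the 99 UMIs of those members lay in 1 cell. Of 22 tested cytokine genes the test called Cxcl10 alone, and the median difference was -0.86 in Heart1 and 0.46 in Heart2. The monocyte attractant Ccl2 had 974 CPM in members against 289 CPM in Heart1 and 688 CPM against 421 CPM in Heart2 (limma, adjusted p = 0.763), and 65.3% and 54% of the members' UMIs lay in 1 cell of each library. Without the highest cell of each sum the Ccl2 difference of 0.70 in Heart2 became 0.04, and without the member with the highest mean z, the predicted doublet, that of 1.73 in Heart1 became 0.36.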
